A study of Mus musculus with 3 samples.

Results

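The endocytic receptor complex of the kidney tubule and its partners were followed in mouse kidney cells over their first days on a culture dish. The members were 8 genes, given by name: Lrp2, Cubn, Amn, Folr1, Dab2, Lrpap1, Clcn5 and Ctns. They were taken as all non-control probes that the array files assign to these gene names, which gave 15 probes of 41174, and 8 genes of 19861 named on the array. The cells, labelled mPTEC, came from kidneys of male mice aged 1 month, and the labels give no treatment or genetic change. The number of animals behind a sample is not given in the sources used here. Total RNA was taken from the fresh isolate (day 0) and from cells kept on dishes for 1 day or 3 days. The dish medium was DMEM/F12 with insulin, transferrin, selenium, non-essential amino acids, 0.1 µM hydrocortisone, antibiotics and 1% serum. Each day was measured on 1 single-colour Agilent array of 60-base probes, so there was no replicate, no test and no error between samples.

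The cells of the proximal tubule recover filtered proteins, vitamins and hormones by endocytosis at their apical surface. The giant receptors megalin (Lrp2) and cubilin (Cubn) bind these ligands there, amnionless (Amn) anchors cubilin in the membrane, and the adaptor Dab2 links the receptor tails to the clathrin machinery. The cargo is then released in endosomes that are acidified by a proton pump with the help of the chloride-proton exchanger ClC-5 (Clcn5), and it is broken down in lysosomes, from which cystinosin (Ctns) exports cystine. Loss of megalin, cubilin, amnionless, ClC-5 or cystinosin function leads to protein loss in the urine in human disease or in mice.

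Levels are given as a spot's processed signal divided by the 75th percentile of the signals on its array, which was 1184, 1509 and 1515 intensity units on days 0, 1 and 3. They describe a probe across days and are not compared between probes. All 15 member probes had 1 spot per array, were well above background on all 3 arrays, and carried no outlier or saturation flag. A pair of yardsticks for a ratio came from the same arrays: spots of a repeated probe differed so that a log2 ratio of single spots would have an SD of 0.20 (from 699 values). Where a gene had several probes, the median SD of their log2 ratios was larger, 0.34, 0.47 and 0.27 for day 1 against day 0, day 3 against day 0, and day 3 against day 1 (7467 genes). Neither yardstick covers the spread between animals or cultures. A 4-fold difference (log2 ratio of 2) was used as the limit for counting a gene as higher or lower.

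The labelled cell type was set beside 14 proximal tubule markers. All 14 were well above background on day 0, with a summed level of 987, which was 183 on day 1 and 16.3 on day 3, when Cyp2e1 was no longer well above background. By day 3, 13 of them were at least 4-fold lower than on day 0. Markers of 8 other cell types gave signal too: all 60 were well above background on days 0 and 1, and 59 on day 3, the exception being Pvalb. Of all 19861 named genes, 18743, 18611 and 18869 were well above background on days 0, 1 and 3. Passing that flag therefore says little about which cells were present. Their summed levels on days 0, 1 and 3 were 433, 99.99 and 21.7 for the loop of Henle, 50.8, 2.66 and 1.28 for the distal convoluted tubule, 50.03, 11.5 and 7.04 for principal cells, and 17.7, 5.74 and 1.25 for intercalated cells. They were 22.2, 5.23 and 6.36 for podocytes, 35.7, 16.4 and 6.04 for endothelium, 15.0, 11.2 and 17.8 for macrophages, and 5.40, 4.47 and 10.9 for fibroblasts. Of these 60 markers, 28 were at least 4-fold lower and 3 at least 4-fold higher on day 3 than on day 0. The sums of 6 of the 8 types were lower on day 3 than on day 0, and the sums for macrophages and fibroblasts were not. By their brightest probes, 7 of the 8 members were lower on day 3 too. A sum over probes is weighted towards its brightest ones. The fibroblast sum rested on Col1a2 (1.97 on day 0 and 7.91 on day 3), and 4 of its 8 markers were lower on day 3, with a median log2 ratio of -0.35. The part of these cell types in the results below was not tested. In such bulk samples, fewer cells of a type and less RNA per cell cannot be told apart.

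The scaling between arrays moved every ratio together. Against the 75th percentile, scaling to 12 reference genes shifted the median of all log2 ratios by -0.31 on day 1 and -0.25 on day 3, and scaling to the spike-in controls by 0.23 and 0.41, so a difference nearer to 0 than that had no settled direction. Genes at least 4-fold higher made up 39.6% of all genes past 4-fold on day 1 and 40.6% on day 3. Those shares were 51.7% and 56.3% after median centring, 25.6% and 29.4% with the reference genes, and 52.6% and 61.6% with the spike-ins. Between day 1 and day 3 the share was 56.0%, and 68.7% with the spike-ins.

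Some members were already much lower after 1 day on the dish. By the brightest probe of each gene, 4 of 8 members were at least 4-fold lower on day 1 than on day 0, namely Lrp2, Cubn, Folr1 and Lrpap1, where 5.15% of 18904 genes were that much lower. None was 4-fold higher, against 3.37% of all genes. All 8 lay below 0, although Clcn5, at -0.09, turned positive with median centring or the spike-ins, with a median log2 ratio of -2.04, and over all genes the median was -0.11 and 55.8% lay below 0. On day 3, 6 of 8 were at least 4-fold lower than on day 0, with Amn and Ctns added, where 7.81% of 19101 genes were. None was 4-fold higher, against 5.32% of genes, and the members' median was -2.56 against -0.10 over all genes. From day 1 to day 3 no member passed 4-fold in either direction, where 1.27% of 19000 genes were 4-fold lower and 1.62% higher. In that interval 5 members lay below 0 and 3 above, with a median of -0.51. Over all genes 53.7% lay below 0 and the median was -0.04, so the split of the members was near that of all genes. Counted by probe, 7 of 15 were at least 4-fold lower on day 1 and 12 of 15 on day 3, but probes of 1 gene share its transcript. Lrp2 alone had 4 of the 15 probes, and the share over all probes is not given here.

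**Figure D1:**
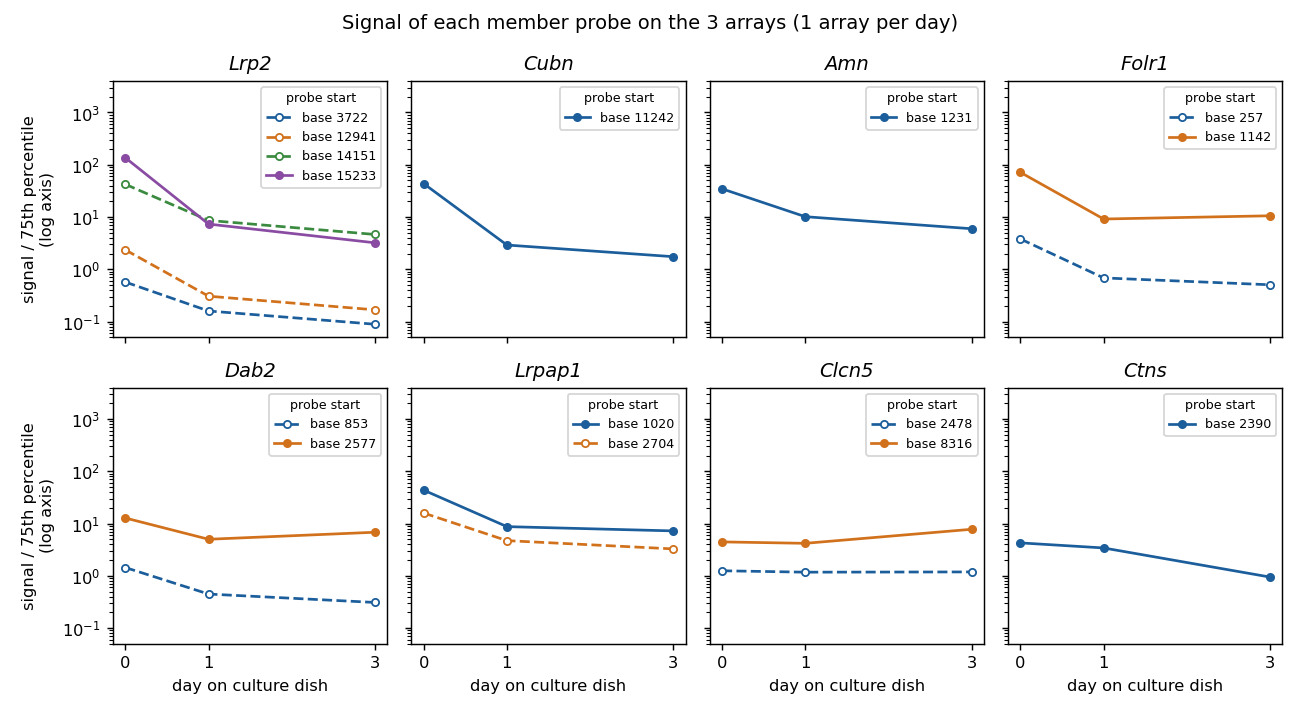
Level of each of the 15 member probes (processed signal over the 75th percentile of the array, log axis) on days 0, 1 and 3, with 1 panel per gene and 1 array per day. Filled points and solid lines mark the brightest probe of a gene, named by its start in the transcript. The lines of Lrp2, Cubn, Amn, Folr1, Dab2 and Lrpap1 drop between days 0 and 1 and those of Clcn5 stay nearly level.

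Among the receptors, Lrp2 encodes megalin, a large member of the LDL receptor family with binding sites for many filtered ligands. Its 4 probes lay at bases 3722, 12941, 14151 and 15233 of the transcript NM_001081088 (minus strand of chromosome 2, mm9). The brightest, at chr2:69262566-69262625, had a level of 135.8 on day 0, 7.32 on day 1 and 3.21 on day 3. That was 18.5-fold lower on day 1 and 42.3-fold lower on day 3 (log2 ratios -4.21 and -5.40), so 2.37% of the day 0 level was left. The probe at chr2:69263648-69263707 read 42.2, 8.61 and 4.64, with log2 ratios of -2.29 and -3.19.

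The other Lrp2 probes each cross an exon junction, since their 60 bases span 146 and 738 bases of genome, at chr2:69345884-69346029 and chr2:69274792-69275529. They are shown because they read spliced RNA far upstream of the brightest probe, and they are printed 5′ to 3′ as the array files give them.
Lrp2 base 3722: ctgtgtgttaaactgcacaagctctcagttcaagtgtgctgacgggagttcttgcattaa
Lrp2 base 12941: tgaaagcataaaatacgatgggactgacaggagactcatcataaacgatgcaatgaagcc
The first read 0.569, 0.159 and 0.0887, or 3.58-fold and 6.41-fold lower on days 1 and 3. The second read 2.35, 0.305 and 0.167, or 7.68-fold and 14.0-fold lower. All 4 probes thus placed Lrp2 lower on each later day, but the size depended on the probe: the log2 ratios of day 3 to day 0 ran from -5.40 to -2.68, a range of 2.72, with a mean of -3.77 (13.6-fold). Between day 1 and day 3 the 4 probes lay close together, 1.79-fold to 2.28-fold lower, with a range of 0.35. The dimmest probe alone would put Lrp2 at -1.84 on day 1, short of 4-fold. By the brightest probe, 0.365% of genes had a lower ratio than Lrp2 on day 1 and 0.633% on day 3.

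Cubn encodes cubilin, the peripheral membrane receptor for intrinsic factor with vitamin B12, albumin and other ligands. Its only probe, at base 11242 of the transcript (chr2:13197988-13198047, minus strand), had a level of 43.4 on day 0, 2.91 on day 1 and 1.74 on day 3. Cubn was 14.9-fold lower on day 1 and 24.9-fold lower on day 3 (log2 ratios -3.90 and -4.64), which left 4.01% of its day 0 level. Its ratio stayed beyond 4-fold under each of 11 other ways of processing, with a range of -4.89 to -4.23 on day 3. Not all of these could move it: with a single unflagged probe, the choices of probe, outliers and background filter had no effect. The authors' table held the same values within rounding. Whether Cubn or Lrp2 had the lower ratio turned on the probe, since the Lrp2 probes lay on either side of the Cubn value on both days.

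Amn encodes amnionless, the transmembrane partner that cubilin needs to reach the apical surface. Its probe crosses an exon junction, with 60 bases spread over 149 bases of genome at chr12:112514095-112514243 on the plus strand. It is shown as the only reading of this partner.
Amn base 1231: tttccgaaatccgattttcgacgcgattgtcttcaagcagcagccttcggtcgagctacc
Amn had a level of 34.6 on day 0, 10.1 on day 1 and 5.97 on day 3, so it was lower on each later day. The differences were 3.41-fold on day 1 and 5.80-fold on day 3 (log2 ratios -1.77 and -2.54). With arrays scaled to the reference genes, the day 1 ratio was -2.08 and passed 4-fold. The Amn ratio was smaller in size than that of Cubn, its partner, by more than the median spread between probes of a gene on both days. Each was read by a single probe, however, and the probes of Lrp2 alone ranged over 2.37 and 2.72, more than this gap. Whether the gap reflects the genes or the probes cannot be told from these arrays.

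Folr1 encodes the glycosylphosphatidylinositol-anchored folate receptor alpha, which takes up folate at the apical membrane and is taken up by megalin in its soluble form. Its 2 probes lay on the minus strand of chromosome 7, at bases 1142 (chr7:109006929-109006988) and 257 (chr7:109016972-109017031). The brighter probe, at base 1142, read 71.5, 9.15 and 10.6, which was 7.81-fold lower on day 1 and 6.78-fold lower on day 3. The other read 3.80, 0.683 and 0.505, or 5.57-fold and 7.53-fold lower. Both probes were past 4-fold on both days. From day 1 to day 3 they differed in sign, with log2 ratios of 0.21 and -0.43, so Folr1 had no settled direction in that interval.

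Dab2 encodes a clathrin adaptor that binds the cytoplasmic tail of megalin. Its probes lay on the plus strand of chromosome 15, and the one at base 853 crosses an exon junction, spread over 444 bases at chr15:6374197-6374640. It is shown because the 2 probes came apart.
Dab2 base 853: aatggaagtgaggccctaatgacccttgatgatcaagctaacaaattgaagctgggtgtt
This probe read 1.44 on day 0, 0.447 on day 1 and 0.309 on day 3, which was 3.21-fold and 4.65-fold lower. The brighter probe, at base 2577 (chr15:6389424-6389483), read 12.7, 5.00 and 6.82, or 2.55-fold and 1.87-fold lower. Both probes were lower on day 1, with log2 ratios of -1.68 and -1.35. On day 3 they were 1.32 apart, at -2.22 and -0.90, so that Dab2 passed 4-fold by 1 probe only. Between day 1 and day 3 the base 853 probe was lower (-0.53) and the base 2577 probe higher (0.45). These arrays therefore place Dab2 below its day 0 level on both days but do not settle by how much.

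Lrpap1 encodes RAP, the chaperone of the endoplasmic reticulum that keeps ligands off megalin and its relatives until they reach the surface. The brighter of its 2 probes crosses an exon junction, with 60 bases spread over 1523 bases at chr5:35435982-35437504 on the minus strand. It is shown because the count of members past 4-fold on day 1 includes Lrpap1 through this probe.
Lrpap1 base 1020: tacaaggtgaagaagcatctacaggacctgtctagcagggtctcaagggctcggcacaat
It read 43.5 on day 0, 8.73 on day 1 and 7.23 on day 3, or 4.98-fold and 6.02-fold lower (log2 ratios -2.32 and -2.59). The probe at base 2704, which the files place at chr5:35434140-35434150, an interval of 11 bases, read 15.9, 4.71 and 3.27, or 3.37-fold and 4.85-fold lower. Both probes were past 4-fold on day 3 and only the brighter one on day 1, when the other had a log2 ratio of -1.75. From day 1 to day 3 both were lower, by 1.21-fold and 1.44-fold.

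Clcn5 encodes ClC-5, the chloride-proton exchanger of early endosomes whose loss causes Dent disease. It stood apart from the receptors. The brighter of its 2 probes, at base 8316 (chrX:6730950-6731009, minus strand), read 4.45 on day 0, 4.18 on day 1 and 7.77 on day 3. The other, at base 2478 (chrX:6736788-6736847), read 1.25, 1.17 and 1.19. On day 1 both probes had a log2 ratio of -0.09, within the spread of single spots, and its sign turned to 0.12 with median centring and 0.14 with the spike-ins. On day 3 the brighter probe was 1.74-fold higher than on day 0 (log2 ratio 0.80) while the other stood at -0.07. Neither reached 4-fold in any comparison, and the 0.88 between them on day 3 was about as large as the difference itself. The ratio of Clcn5 lay above that of 79.3% of genes on day 3 and 51.0% on day 1.

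Ctns encodes cystinosin, the lysosomal cystine exporter that is mutated in cystinosis. Its only probe, at base 2390 (chr11:72997195-72997254, minus strand), read 4.26 on day 0, 3.41 on day 1 and 0.946 on day 3. Ctns was thus 1.25-fold lower on day 1, then 3.61-fold lower on day 3 than on day 1, and 4.51-fold lower on day 3 than on day 0 (log2 ratios -0.32, -1.85 and -2.17). Only 1.56% of genes had a lower ratio between day 1 and day 3, where the next lowest member, Lrp2, was at -1.19. The day 3 ratio was near the 4-fold limit and was short of it in 4 of 11 other ways of processing, at -1.86 with median centring, -1.76 with the spike-ins, -1.66 with normexp background correction and -1.71 without the spatial trend correction. That correction had been applied to the arrays of days 0 and 1 and not to that of day 3. The ratio was below 0 in all 11. Those that change the choice of probe, outliers, background filter or source table could not move this single-probe ratio beyond rounding.

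**Figure D2:**
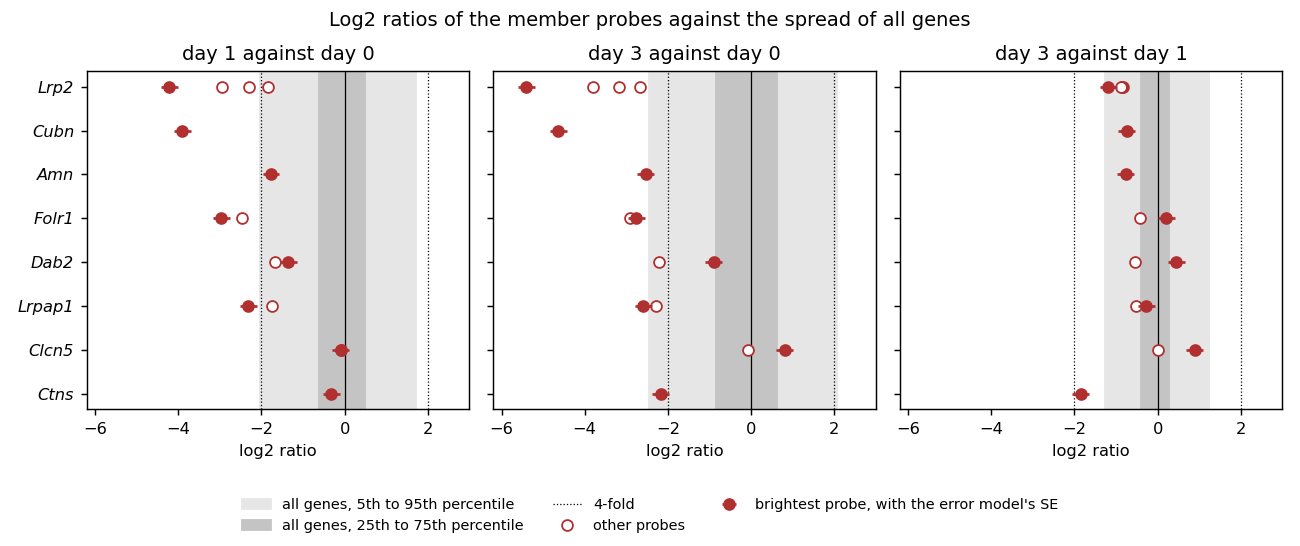
Log2 ratios of the 15 member probes in the 3 comparisons, with filled points for the brightest probe of a gene and open points for other probes, over grey bands for the spread of all genes (5th to 95th and 25th to 75th percentile). Horizontal bars are the standard error that the scanner software's error model gives for 1 spot per array, not an error between samples; by their brightest probes, Lrp2, Cubn, Folr1 and Lrpap1 lie left of the wider band on day 1.

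The members differed in when their lower levels appeared. For Lrp2, Cubn, Amn and Lrpap1, by their brightest probes, the day 1 difference already made up 78.0%, 84.0%, 69.8% and 89.5% of the day 3 difference on the log2 scale. For Folr1 it was 107%, as the day 3 level was slightly above that of day 1. For Ctns it was 14.8%. By these probes, the time course of Ctns differed from that of the other 5 members that were past 4-fold on day 3, by more than the median spread between probes of a gene. Ctns was read by a single probe, however. The probes of Lrp2 alone ranged over 2.37 on day 1, and those of Dab2 over 0.98 from day 1 to day 3. Whether the gene or its probe differed cannot be told from these arrays. On day 3 the order of the log2 ratios was Lrp2 (-5.40), Cubn (-4.64), Folr1 (-2.76), Lrpap1 (-2.59), Amn (-2.54), Ctns (-2.17), Dab2 (-0.90) and Clcn5 (0.80). Neighbours from Folr1 to Ctns were closer together than the spread between probes of a gene (0.47), so their order cannot be read from these arrays. Lrp2 and Cubn lay apart from the others by more than that spread when read by the brightest probe, but the dimmest Lrp2 probe (-2.68) fell among Folr1, Lrpap1 and Amn.

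**Figure D3:**
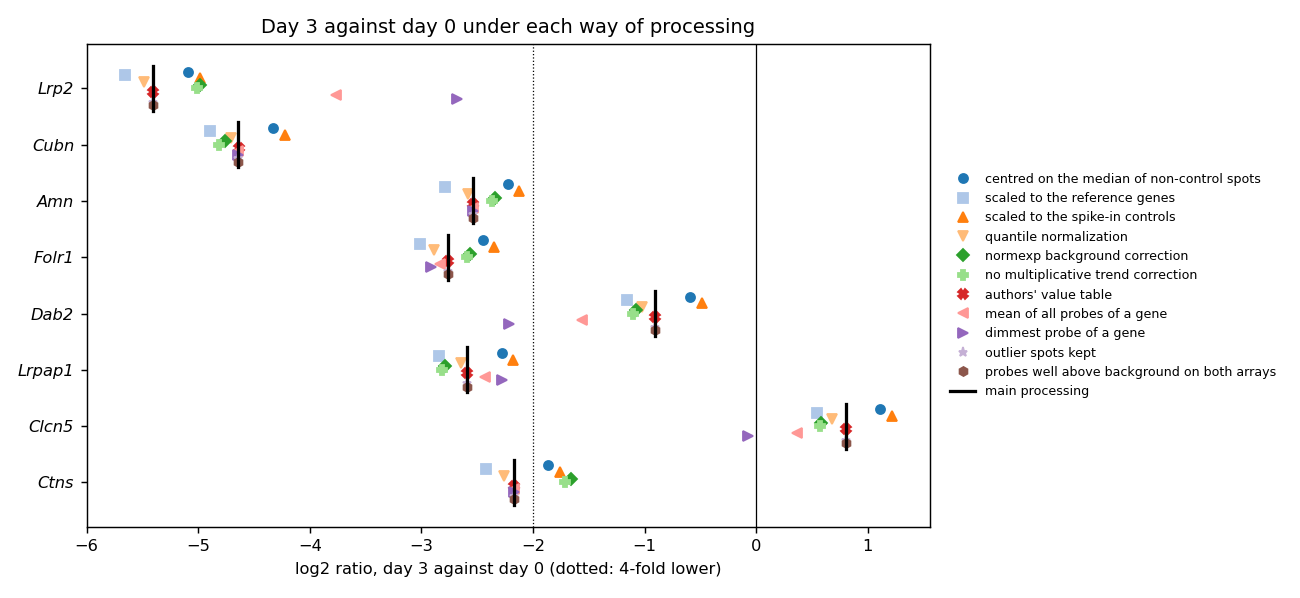
Log2 ratio of day 3 to day 0 for each member under the main processing (black bars) and 11 alternatives (symbols), with the dotted line at 4-fold lower. Lrp2, Cubn, Amn, Folr1 and Lrpap1 stay left of that line under all of them, Ctns crosses it in 4 and Dab2 in 1, and Clcn5 changes sign with its dimmest probe. Some of the 11 could not move a member's ratio beyond rounding.

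The promoters of Lrp2, Cubn, Amn and Lrpap1, members at least 4-fold lower on day 3 under every way of processing tried, are shown so that their sequences can be compared. The 250 bases before each transcript start were taken from RefSeq on GRCm38.p6, where 7 of the 8 members had an entry, with 10 windows in all, and Folr1 had none. Each is written 5′ to 3′ on the strand of the gene, and capitals mark matches on either strand to 5 short motifs. The HNF1 motif searched for was GTTAAT, which is part of the site of this tubule transcription factor. The E-box was spelled CACGTG, as bound by helix-loop-helix factors. The GC box was GGGCGG, a common motif of promoters rich in these bases. The TATA box was TATAAA, and the last motif was the box named after its letters, CCAAT. No motif contains another on either strand.
Lrp2, chr2:69586030-69586279, minus strand: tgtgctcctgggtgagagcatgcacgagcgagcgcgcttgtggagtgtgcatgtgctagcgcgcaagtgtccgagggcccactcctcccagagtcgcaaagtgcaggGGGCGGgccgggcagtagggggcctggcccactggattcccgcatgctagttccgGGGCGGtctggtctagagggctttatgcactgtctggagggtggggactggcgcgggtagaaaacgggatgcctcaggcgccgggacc
Cubn, chr2:13491877-13492126, minus strand: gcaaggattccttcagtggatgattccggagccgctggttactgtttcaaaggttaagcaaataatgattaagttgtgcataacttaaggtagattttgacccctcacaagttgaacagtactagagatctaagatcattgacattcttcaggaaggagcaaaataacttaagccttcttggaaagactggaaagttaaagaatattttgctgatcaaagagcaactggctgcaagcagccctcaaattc
Amn, chr12:111270846-111271095, plus strand: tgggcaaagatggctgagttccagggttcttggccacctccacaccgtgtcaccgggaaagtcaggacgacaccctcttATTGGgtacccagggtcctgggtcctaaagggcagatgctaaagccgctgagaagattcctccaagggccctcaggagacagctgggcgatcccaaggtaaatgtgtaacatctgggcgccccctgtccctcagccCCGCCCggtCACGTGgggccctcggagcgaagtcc
Lrpap1, chr5:35105700-35105949, minus strand: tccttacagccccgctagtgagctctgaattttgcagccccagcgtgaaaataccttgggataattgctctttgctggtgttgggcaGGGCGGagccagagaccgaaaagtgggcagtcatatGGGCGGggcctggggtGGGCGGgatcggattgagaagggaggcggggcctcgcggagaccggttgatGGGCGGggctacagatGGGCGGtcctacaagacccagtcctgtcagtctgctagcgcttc

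Of the 4 windows shown, Lrp2, Amn and Lrpap1 shared the GC box and a high GC content, and Cubn had neither. Their GC content was 66.4% for Lrp2, 39.6% for Cubn, 61.2% for Amn and 60.8% for Lrpap1, where the median of 32851 mouse windows was 52.4%. The GC box occurred in Lrp2, at 143 and 88 bases before the start, in Amn at 35 bases, and in Lrpap1 at 5 places from 163 to 44 bases. It was also found in 1 of 2 windows of Clcn5 and, as the same site, in both overlapping windows of Ctns. That makes 5 of 7 genes, and by window 6 of 10, where 32.7% of all windows held it. Amn alone held the E-box, 26 bases before the start, and CCAAT, at 171 bases, motifs found in 6.02% and 33.8% of all windows. GTTAAT was in 1 window of Dab2 and in no other member window (6.43% of all windows), and TATAAA was in 1 window of Clcn5 (12.4% of all). Cubn held none of the 5. A match is a description of the letters and no evidence of binding.

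The genes with a time course most like that of Lrp2 were sought among 17170 genes well above background on all 3 arrays, by the distance between their pairs of log2 ratios (day 1 and day 3 against day 0). The nearest 4 were Hnf4aos at a distance of 0.15, Kl at 0.17, Pbld2 at 0.19 and Vwce at 0.19. They hold for the brightest probe of Lrp2, since its 4 probes lay up to 2.72 apart on day 3. Kl, which encodes the FGF23 coreceptor klotho, read 24.7, 1.38 and 0.521 on the 3 days. Cubn ranked 41st by this measure, at 0.82, and Folr1, Lrpap1 and Amn ranked 516, 685 and 864. For Dab2, by its brighter probe, the nearest 4 were Fgd2 (0.017), Tmprss2 (0.040), Rassf9 (0.047) and Gabrb1 (0.047). With 3 arrays, 1 pair of ratios describes a gene, and the Dab2 probe at base 853 would have other neighbours.

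The rest of the endocytic route was read through 8 lists with 144 genes measured. Of these, 8 were at least 4-fold lower on day 1, which is 5.56%, against 5.15% of all genes. On day 3, 19 were lower, 13.2%, against 7.81% of all genes, and 4 were higher, 2.78%, against 5.32% of all genes. On day 1, 3 were higher, 2.08%, against 3.37% of all genes. From day 1 to day 3, 2 were lower, 1.39%, against 1.27% of all genes, and none was higher. The median log2 ratio over the 144 genes was -0.06 on day 1 and -0.37 on day 3, both within the shifts between scalings. Some genes named below were also near the 4-fold limit on day 3. Appl2, Atp6v0d2, Lgmn, Slc17a5, Lrp6 and Bsnd lay nearer to it than the shift of 0.41 with the spike-ins. Scarb1 lay nearer to it than the shift of -0.25 with the reference genes.

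By the brightest probe of each gene, the uptake machinery beneath the receptors showed few differences of this size. In the clathrin coat and adaptor list, 1 of 24 genes was past 4-fold on either day and none was lower, with medians of 0.25 and 0.24. That gene was Ap2b1, a subunit of the AP2 adaptor, which read 0.671, 3.41 and 4.59 (log2 ratios 2.34 and 2.77), but its other probe stood at 0.29 and -0.52. For Cltc, the clathrin heavy chain, the brightest probe stood at 0.33 and 0.26. Another of its probes stood at -1.57 on day 1 and -2.27 on day 3, past 4-fold lower. Among 28 genes of early and recycling endosomes, none was past 4-fold on day 1 by its brightest probe. Other probes of Rab5a and Eea1 were past it, at 2.63 and 2.32. On day 3 only Appl2, an early endosome adaptor, was, at -2.12, and the medians were 0.33 and 0.09.

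The acidifying pump differed by subunit. Of 20 genes of the vacuolar proton pump, 3 were at least 4-fold lower on day 1 and 4 on day 3, with medians of 0.08 and -0.73. Atp6v0a4, a kidney isoform of the membrane sector, read 3.49, 0.353 and 0.148 (log2 ratios -3.31 and -4.56), and its other probe gave -3.39 and -4.31. Atp6v1c2 read 1.89, 0.192 and 0.0790 (-3.30 and -4.58). Atp6v1b1, the isoform of intercalated cells, stood at -2.94 and -3.87. Atp6v0d2, which is also among the intercalated cell markers, was at 0.98 on day 1 and -2.21 on day 3, and was 9.18-fold lower on day 3 than on day 1. The summed level of the intercalated cell markers was 17.7 on day 0 and 1.25 on day 3, and the part of that cell type in these values was not tested.

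Downstream, 4 of 26 lysosomal genes were at least 4-fold lower on day 3 and none on day 1, with medians of -0.77 and -0.34. They were the acid lipase Lipa (-2.64), the membrane protein Lamp2 (-2.58, and -1.61 by its other probe), the sialic acid exporter Slc17a5 (-2.03) and the protease legumain, Lgmn (4.01-fold lower). These counts hold for the brightest probes. The other Lipa probe was at -2.42 on day 1, and other probes of Ctsa (-2.09) and Tpp1 (-2.54) were past 4-fold on day 3. For Lgmn, which sat at the limit, the levels were 77.6, 48.5 and 19.4. In Lgmn, as in Ctns, the difference from day 1 to day 3 (-1.32) was larger than that from day 0 to day 1 (-0.68).

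Other receptors of the LDL receptor family went both ways. Of 13 genes besides Lrp2, 1 was at least 4-fold lower on day 1 and 3 on day 3. Those lower on day 3 were Lrp4 (-3.22, but -0.44 by its other probe), the sorting receptor Sorl1 (-3.12) and Lrp6 (-2.36). Lrp8, by contrast, read 0.0658, 0.426 and 0.463, with log2 ratios of 2.70 and 2.81, and its other 2 probes were higher too. Lrpap1, which serves this family as a whole, was thus lower while Lrp8 was higher by all of its probes.

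Among 10 genes of CLC channels, exchangers and their subunits besides Clcn5, none was past 4-fold on day 1. Bsnd, which encodes the channel subunit barttin, was lower on day 3, with a log2 ratio of -2.23. It is known from the loop of Henle, distal tubule and intercalated cells, whose marker sums were lower on day 3 as given above.

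Genes of folate and vitamin B12 handling and the plasma carriers that megalin and cubilin take up had the lowest medians of the 8 lists, -1.19 and -1.46. Of 14, 4 were at least 4-fold lower on day 1 and 5 on day 3. Tcn2, the vitamin B12 carrier transcobalamin, read 17.3, 3.82 and 1.06, or 16.3-fold lower on day 3. Mmut, the mitochondrial mutase that uses vitamin B12, read 60.7, 14.1 and 9.49, or 6.40-fold lower. Ttr, transthyretin, read 1.22 and 0.0993 on days 0 and 1 (log2 ratio -3.61) and on day 3 its signal was no longer well above background. Folr2, a folate receptor also carried by macrophages, was 8.02-fold lower on day 1.

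In the list of receptor chaperones and maturation genes, 1 of 9 was past 4-fold, and the medians were -0.61 on day 1 and 0.66 on day 3. That gene was Scarb1, a lipoprotein receptor and not a chaperone, which read 0.754, 2.03 and 3.10 (log2 ratio 2.04 on day 3). Lrpap1, at -2.59, was the chaperone of the complex and was not counted in this list.

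**Figure D4:**
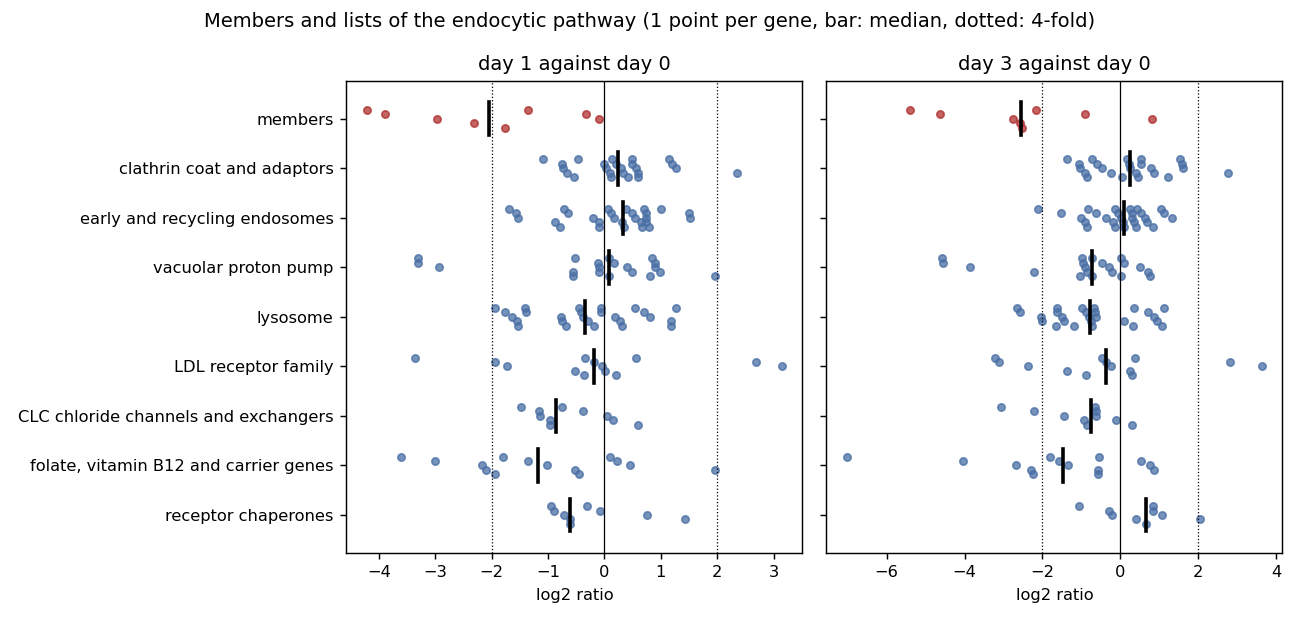
Log2 ratios of the 8 members (red) and of the genes in 8 lists of the endocytic route (blue), 1 point per gene, with a black bar at the median and dotted lines at 4-fold. The lowest point on day 3, Ttr among the carriers, is a bound; the members' medians of -2.04 and -2.56 lie left of the medians of all lists on both days, as a description of members that earlier results had singled out.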

How the data were processed

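Each day was 1 sample on 1 array, grouped by the labels. The authors deposited scanner files whose processed signals are intensities, background subtracted and corrected for spatial trends, per the file headers, and flags of other kind for each spot. The arrays were not corrected alike: the multiplicative trend correction changed 95.1% of 32511 spots by over 1% on day 0, 95.2% of 32923 on day 1 and 0% on day 3. On member probes its factor ran from 0.853 to 1.38 on day 0 and from 0.868 to 1.39 on day 1. This touches every ratio of day 3 to another day. The submitters' processing notes name Agilent Feature Extraction 9.1 and the file headers version 10.5.1.1. The authors also deposited a table of ratios, which matched the processed signal over the 75th percentile of its array within 0.0005. Probe positions are on mm9, per the file headers.

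Here log2 processed signals minus the 75th percentile were used. Flagged outlier spots (94, 102 and 85) were left out and spots of a probe averaged. A probe counted as well above background if most of its spots did. Genes were named from RefSeq by accession (26880 probes), symbol (5031) or synonym (831), which left 8432 probes unnamed, and each gene was read by its brightest probe. A ratio with 1 side not well above background was taken as a bound, against the dimmest signal on that array that was well above background (1.14%, 1.06% and 0.936% of the 75th percentile) or the probe's own. All ratios are differences of log2 values with no test, since each day had 1 array; counting was checked on simulated data.

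The members and the gene lists were chosen with earlier results of these data known. Named genes were the members, list genes past 4-fold (where more than 4 were, the 2 largest in each direction), and the 4 genes nearest to Lrp2 and to Dab2; other list genes given for comparison were chosen after their values were seen. Some list genes are not reported here. Alternatives were median centring, reference genes, spike-ins, quantile normalization, normexp (limma 3.58.1, offset 50), no trend correction, the authors' table, the mean or the dimmest probe, outliers kept, a stricter filter and a 2-fold limit. Tools were Python 3.11.15, pandas 2.3.3 and R 4.3.3.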

Additional observations from a re-analysis of the deposited data

How the results depend on the processing

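No member's difference past 4-fold changed its sign under the 11 alternatives run for it. Over the members' ratios, Lrp2, Cubn, Amn, Folr1 and Lrpap1 were at least 4-fold lower on day 3 than on day 0 under all 11, and Cubn and Folr1 on day 1. Some of the 11 had no other possible outcome. Keeping outliers, the stricter filter and the authors' table could not move any member's ratio beyond rounding. For Cubn, Amn and Ctns, each with a single probe, the mean and the dimmest probe could not either. The count of members at least 4-fold lower on day 1 was 2 in place of 4 with the dimmest probe of each gene. With a 2-fold limit, 2 members were lower on day 3 than on day 1, and the share of all genes at that limit is not given here. Of the 144 other genes of the route, 19 were lower on day 3 than on day 0, which became 12 with median centring, 11 with the spike-ins and 37 at 2-fold. Over all genes the share lower moved too, from 7.81% to 5.76% with median centring and 5.18% with the spike-ins. On day 1 the count of 8 became 14 with the reference genes (5.15% to 7.07% over all genes) and 28 at 2-fold. From day 1 to day 3 the count of 2, at 1.39% near the 1.27% of all genes, became 1 with normexp, 4 with the dimmest probe, 1 with the stricter background filter and 16 at 2-fold. The counts at 2-fold have no all-gene share beside them. Over all genes the 5th and 25th percentiles were -2.03 and -0.62 on day 1, and -2.45 and -0.84 on day 3. A 2-fold limit lies between these, so larger counts at 2-fold are no result about the listed genes. The cause of the other moves was not tested. No paired analysis was possible because each day had 1 array, and no array could be left out for the same reason. The number of arrays limits the precision.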

Other observations

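A clone probe that the array files describe as Dab2 but do not name so (chr15:6380412-6380471, mm9) lies between the positions of both Dab2 probes. Its levels were 0.0298, 0.00957 and 0.00606 on days 0, 1 and 3, and it was well above background on day 0 only. Lrp1, the close relative of Lrp2 that most cell types express, had levels of 0.548, 0.534 and 0.395. Its log2 ratios to day 0 were -0.04 on day 1 and -0.47 on day 3, and those of its other probe were 0.35 and -1.81.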
